A study of Homo sapiens with 2 samples.

Results

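Genes of the interleukin-6 cytokine family that signal through gp130, with STAT3 and SOCS3, were compared between MTAC-P and PC9. The set holds 10 genes: the ligands IL11, IL6, LIF and CLCF1, the receptor chains IL6R, IL6ST, LIFR and OSMR, the transcription factor STAT3 and its feedback inhibitor SOCS3. The genes were chosen by symbol, and the 10 symbols, covered by 28 transcripts, were all found among 30843 symbols in the tables. MTAC-P is a human lung cancer line that was derived from PC9 and resists EGFR tyrosine kinase inhibitors. PC9, its parent, is a lung adenocarcinoma line with an activating EGFR deletion. Both were grown in serum-containing DMEM, and the labels name no inhibitor in the medium and do not say how MTAC-P was selected or whether it is a single clone. The series text mentions triplicates, but each line has 1 library here, which leaves the differences below without a replicate check, a standard error or a p-value.

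Cytokines of this family bring together receptor chains at the cell surface, nearly always including gp130, the product of IL6ST. JAK kinases bound to these chains then phosphorylate STAT3, which enters the nucleus and switches on genes, among them SOCS3, whose product binds gp130 and shuts the receptor down. In epithelial cancers this pathway is known for promoting survival and inflammation, and in EGFR-mutant lung cancer STAT3 activity has been studied as a route around EGFR inhibition. These are mRNA levels, and neither phosphorylated STAT3 nor secreted cytokine was measured.

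Transcript levels were read as FPKM, fragments scaled to the length of the transcript and to sequencing depth, and summed over the listed transcripts of each gene. The log2 ratio below is log2((MTAC-P + 1)/(PC9 + 1)), so a positive value is higher in MTAC-P, and 2-fold means a log2 ratio of at least 1 in size. The ratio understates differences of genes with low levels. The FPKM values summed to 685082 in MTAC-P and 693444 in PC9, and the read depth behind them is unknown. A level is an average over the culture, so more expressing cells and more RNA per expressing cell cannot be told apart. The epithelial identity of both lines was checked on 9 markers, which summed to 4085 FPKM in MTAC-P and 3901 in PC9, none at 2-fold. KRT18, a keratin of simple epithelia, gave most of these sums (2720 FPKM in MTAC-P and 2329 in PC9), and 2 of the 9 had a positive log2 ratio, with a median of -0.05. Markers of fibroblasts, which are known to make IL-6 and IL-11, summed to 3.004 FPKM over 9 genes in MTAC-P and 2.52 in PC9, and 8 of the 9 were under 1 in both lines. Leukocyte markers summed to 30.6 FPKM in MTAC-P and 24.4 in PC9 and were under 1 in both lines for 10 of 12 genes, with CD68, also a lysosomal protein of other cells, at 28.8 FPKM in MTAC-P and 22.2 in PC9. Endothelial markers summed to 6.49 FPKM over 5 genes in MTAC-P and 5.83 in PC9. Of 4 lung markers, SFTPC was highest in MTAC-P, at 2.80 FPKM in MTAC-P and 1.21 in PC9. NAPSA was highest in PC9, at 1.92 FPKM in MTAC-P and 1.67 in PC9. The lung factor NKX2-1 was listed at 0 in MTAC-P and stood at 0.0787 in PC9, from 1 of its 5 coding transcripts.

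The promoter sequences of IL11, OSMR and LIFR are shown because these 3 genes had the largest log2 ratios. Their direction does not set them apart, since all 10 genes were higher in MTAC-P. Each window, credited to RefSeq on GRCh38.p14, runs from 250 bases before to 50 bases after the annotated start, 5′ to 3′ on the gene's strand. Capitals mark matches on either strand to an AP-1 motif (TGANTCA) or a STAT motif (TTCNNNGAA), neither of which overlaps the other. The windows are chr19:55370414-55370713 on the minus strand for IL11, chr5:38845762-38846061 on the plus strand for OSMR and chr5:38595356-38595655 on the minus strand for LIFR.
IL11: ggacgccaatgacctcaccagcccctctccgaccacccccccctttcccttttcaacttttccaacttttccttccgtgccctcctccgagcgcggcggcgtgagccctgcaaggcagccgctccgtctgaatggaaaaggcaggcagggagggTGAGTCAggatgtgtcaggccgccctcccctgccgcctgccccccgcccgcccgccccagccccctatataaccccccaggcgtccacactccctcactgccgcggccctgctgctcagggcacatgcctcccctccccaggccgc
OSMR: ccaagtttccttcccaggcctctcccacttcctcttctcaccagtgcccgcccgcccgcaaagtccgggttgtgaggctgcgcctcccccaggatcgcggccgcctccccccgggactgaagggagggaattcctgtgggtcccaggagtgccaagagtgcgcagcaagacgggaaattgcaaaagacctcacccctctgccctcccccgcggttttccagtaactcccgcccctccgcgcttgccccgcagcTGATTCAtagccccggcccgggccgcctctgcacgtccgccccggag
LIFR: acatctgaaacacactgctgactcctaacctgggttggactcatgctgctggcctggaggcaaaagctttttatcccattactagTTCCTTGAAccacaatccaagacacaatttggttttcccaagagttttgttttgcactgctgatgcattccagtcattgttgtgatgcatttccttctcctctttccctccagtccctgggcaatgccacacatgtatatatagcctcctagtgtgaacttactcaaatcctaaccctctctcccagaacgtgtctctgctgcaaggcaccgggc
IL11 held 1 AP-1 match, TGAGTCA, that begins 96 bases before the start, and no STAT match. OSMR held an AP-1 match, TGATTCA, 3 bases after its start. The LIFR window shown held a STAT match, TTCCTTGAA, 165 bases before the start, and no AP-1 match. It is 1 of 3 LIFR windows in the table, chosen because it lies at the start of the listed transcript; another held a STAT match 182 bases before its start and the last held neither motif. Of 35116 promoter windows of the same length, 7.71% held the AP-1 motif and 7.66% the STAT motif. The table held 11 windows for 8 of the 10 genes, of which 3 had an AP-1 match (1 each of IL11, OSMR and IL6R) and 2 a STAT match (both of LIFR). The listed OSMR transcript starts 13 bases from the annotated start and the listed LIFR transcript 1 base from it. The listed IL11 transcript starts 90 bases downstream. The other LIFR windows have annotated starts 37937 and 38758 bases from the listed LIFR start. The SOCS3 windows, without a match, have annotated starts 848 and 410 bases from the listed SOCS3 start. Neither covers the bases just before that start, so motifs there were not looked for. The matches describe the letters of these windows only, and no binding was measured.

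All 10 genes were higher in MTAC-P than in PC9, and 5 of them, IL11, OSMR, LIFR, SOCS3 and LIF, were at least 2-fold higher. None was 2-fold lower. Over the 11435 genes that averaged 1 FPKM or more in the 2 libraries, 3.48% were higher by 2-fold and 4.29% lower, together 7.77%, and 47.6% had a log2 ratio above 0. The median log2 ratio was 0.99 over the 10 genes and -0.02 over all genes compared. The genes were gathered with earlier results of these libraries known, so the count is a description of this set.

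**Figure D1:**
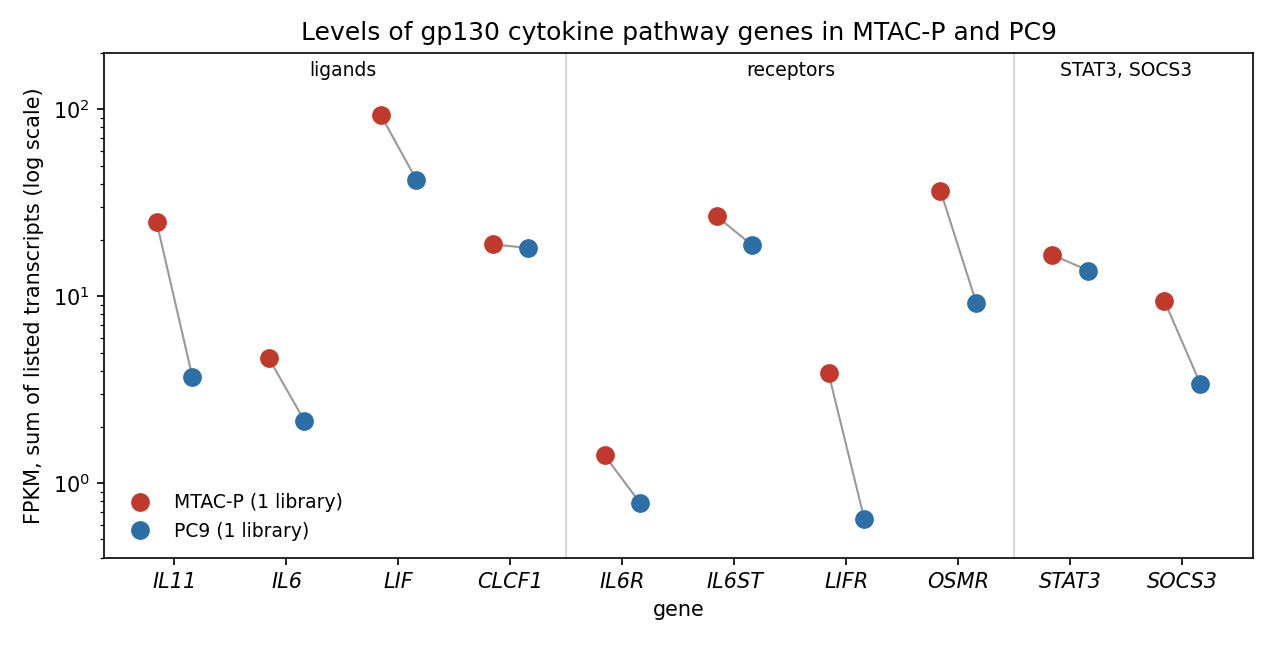
Level of each gene in FPKM on a log axis, as the sum of its listed transcripts, with 1 point per library, MTAC-P in red to the left and PC9 in blue to the right. Every pair slopes downward to PC9, most steeply for IL11 (24.9 against 3.70) and LIFR (3.88 against 0.642), and almost level for CLCF1 (19.0 against 18.1).

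Among the ligands, IL11 differed most. IL-11 is a cytokine that binds its own receptor chain, IL11RA, and then gp130, and is known for roles in epithelial tumours and fibrosis. IL11 (chromosome 19, 55364389 to 55370463, minus strand) stood at 24.9 FPKM in MTAC-P and 3.70 in PC9, a log2 ratio of 2.46, and a ratio of 6.74 without the pseudocount. Its log2 ratio exceeded that of 99.6% of the genes compared. By level it moved to the 74.6th percentile of genes compared in MTAC-P, against the 23.8th in PC9. This value comes from a single transcript, IL11-201, which encodes 199 residues, and the other 3 coding transcripts of IL11 in GENCODE were not analysed here.

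LIF, which signals through LIFR and gp130 and was named for its action on leukaemia cells, was the most abundant of the 10 genes in both lines. LIF (chromosome 22, 30240447 to 30246851) stood at 93.5 FPKM in MTAC-P and 42.0 in PC9, a log2 ratio of 1.14. Both of its GENCODE transcripts were listed and both were higher in MTAC-P. LIF-201, which encodes 202 residues, stood at 43.8 FPKM in MTAC-P and 18.2 in PC9 (log2 ratio 1.22). LIF-202, a short transcript of 592 nt encoding 88 residues, stood at 49.8 FPKM in MTAC-P and 23.8 in PC9 (log2 ratio 1.04). The split between the transcripts was therefore similar, with LIF-202 making up 53.2% of the LIF sum in MTAC-P and 56.6% in PC9. The top rank of LIF in PC9 rests on LIF-202. LIF-201 alone, at 18.2 FPKM in PC9, was near the PC9 sums of IL6ST (18.7) and CLCF1 (18.1). In MTAC-P LIF-201 alone, at 43.8 FPKM, stayed above OSMR (36.6), the next gene.

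IL6, the best known cytokine of the family, was at a low level in both lines. IL6 (chromosome 7, 22725884 to 22732002) stood at 4.68 FPKM in MTAC-P and 2.16 in PC9, a log2 ratio of 0.85, below 2-fold on this scale and 2.17-fold without the pseudocount. Part of the difference was a short transcript. IL6-201, encoding the 212 residues of the full protein, stood at 3.62 FPKM in MTAC-P and 1.98 in PC9 (log2 ratio 0.64). IL6-206, encoding 136 residues, stood at 0.994 FPKM in MTAC-P and was listed at 0 in PC9. The exons of listed IL6 transcripts share 46 bases with STEAP1B on the opposite strand, which stood at 1.34 FPKM in MTAC-P and 0.261 in PC9, and the sources used here do not say whether counting used strand. Listed exons of IL6 also share 428 bases with the antisense gene AC073072.1, and those of LIF and IL6ST overlap antisense genes. Without use of strand, antisense reads could not be told apart from those of IL6, LIF and IL6ST. Listed exons of CLCF1 share 61 bases with AP003419.1, a coding gene on the same strand, where strand would not separate the reads.

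CLCF1, a ligand that acts on the ciliary neurotrophic factor receptor, was near equal. CLCF1 (chromosome 11, 67364168 to 67374177) stood at 19.0 FPKM in MTAC-P and 18.1 in PC9, a log2 ratio of 0.06. Of the 4 ligands, IL11 and LIF passed 2-fold. The order of the ligands by level was LIF, IL11, CLCF1, IL6 in MTAC-P and LIF, CLCF1, IL11, IL6 in PC9. With 1 library a line, no spread is available to say which neighbours in these orders differ.

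Among the receptors, the chains for LIF and oncostatin M differed most. OSMR pairs with gp130 to bind oncostatin M, and with IL31RA to bind IL-31. OSMR (chromosome 5, 38845858 to 38945596, plus strand) stood at 36.6 FPKM in MTAC-P and 9.21 in PC9, a log2 ratio of 1.88, higher than that of 99.0% of genes compared. By level it was number 2 of the 10 genes in MTAC-P, after LIF, and number 5 in PC9. The value is that of OSMR-201, encoding 979 residues. OSMR-202, encoding 342 residues, was not analysed here.

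LIFR (chromosome 5, 38474963 to 38608354, minus strand) binds LIF and is shared by other ligands of the family. It stood at 3.88 FPKM in MTAC-P and 0.642 in PC9, a log2 ratio of 1.57, and 6.04-fold without the pseudocount. The relative difference was close to that of IL11, at a much lower level. The value is that of LIFR-201, which encodes 1097 residues. LIFR-202, which encodes a protein of the same length, was not analysed here.

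LIFR and OSMR are neighbours, 238 kb apart on the short arm of chromosome 5. Most coding genes around them were within 2-fold. Of 6 other genes compared within 2 Mb of LIFR, the median log2 ratio was -0.06, and for 9 within 2 Mb of OSMR it was -0.14. RICTOR, the next gene beyond OSMR, which encodes a subunit of the mTORC2 kinase complex, stood at 16.1 FPKM in MTAC-P and 15.8 in PC9 (log2 ratio 0.02). NUP155, a nuclear pore gene on the other side, stood at 37.7 FPKM in MTAC-P and 37.4 in PC9 (log2 ratio 0.01). The exception was SLC1A3, a glutamate transporter gene within 2 Mb of LIFR, at 8.66 FPKM in MTAC-P and 0.0510 in PC9 (log2 ratio 3.20). These genes were looked up after the values of LIFR and OSMR were seen.

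IL6ST (chromosome 5, 55935095 to 55994993, minus strand), the shared gp130 chain, stood at 26.8 FPKM in MTAC-P and 18.7 in PC9, a log2 ratio of 0.50. The sum hides unequal transcripts. IL6ST-201, whose first exon lies within the locus, stood at 16.5 FPKM in MTAC-P and 6.88 in PC9 (log2 ratio 1.15), while IL6ST-206, which starts at the far 5′ end, stood at 8.12 FPKM in MTAC-P and 7.995 in PC9 (0.02). Both encode the same length of protein, 918 residues, and together they stood at 24.7 FPKM in MTAC-P and 14.9 in PC9, a log2 ratio of 0.69. IL6ST-209, also of 918 residues, was not analysed here.

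The shorter IL6ST transcripts went both ways. IL6ST-203, which encodes 329 residues, stood at 2.15 FPKM in MTAC-P and 1.06 in PC9 (log2 ratio 0.61). IL6ST-204, a transcript of 612 nt encoding 203 residues, was listed at 0 in MTAC-P and stood at 2.27 FPKM in PC9, 12.2% of the PC9 sum. IL6ST-205, encoding 857 residues, stood at 0.00608 FPKM in MTAC-P and 0.502 in PC9. Transcripts that share most of their exons are told apart by few reads, and an exact 0 can be a failed estimate, so these splits are less certain than the sums.

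IL6R, the chain that gives a cell its response to IL-6, was the lowest or next to lowest of the 10 genes in both lines. IL6R (chromosome 1, 154405193 to 154469450) stood at 1.41 FPKM in MTAC-P and 0.781 in PC9, a log2 ratio of 0.44. IL6R-202, the transcript of 468 residues that encodes the membrane form, made up nearly all of it in MTAC-P and all of it in PC9. IL6R-201, which encodes 365 residues and corresponds to the spliced soluble form, was listed at 1.4e-05 FPKM in MTAC-P and at 0 in PC9. The 75 other coding genes compared within 2 Mb of IL6R had a median log2 ratio of 0.26, and the 1066 on chromosome 1 a median of 0.17. Their part in the IL6R value was not tested.

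**Figure D2:**
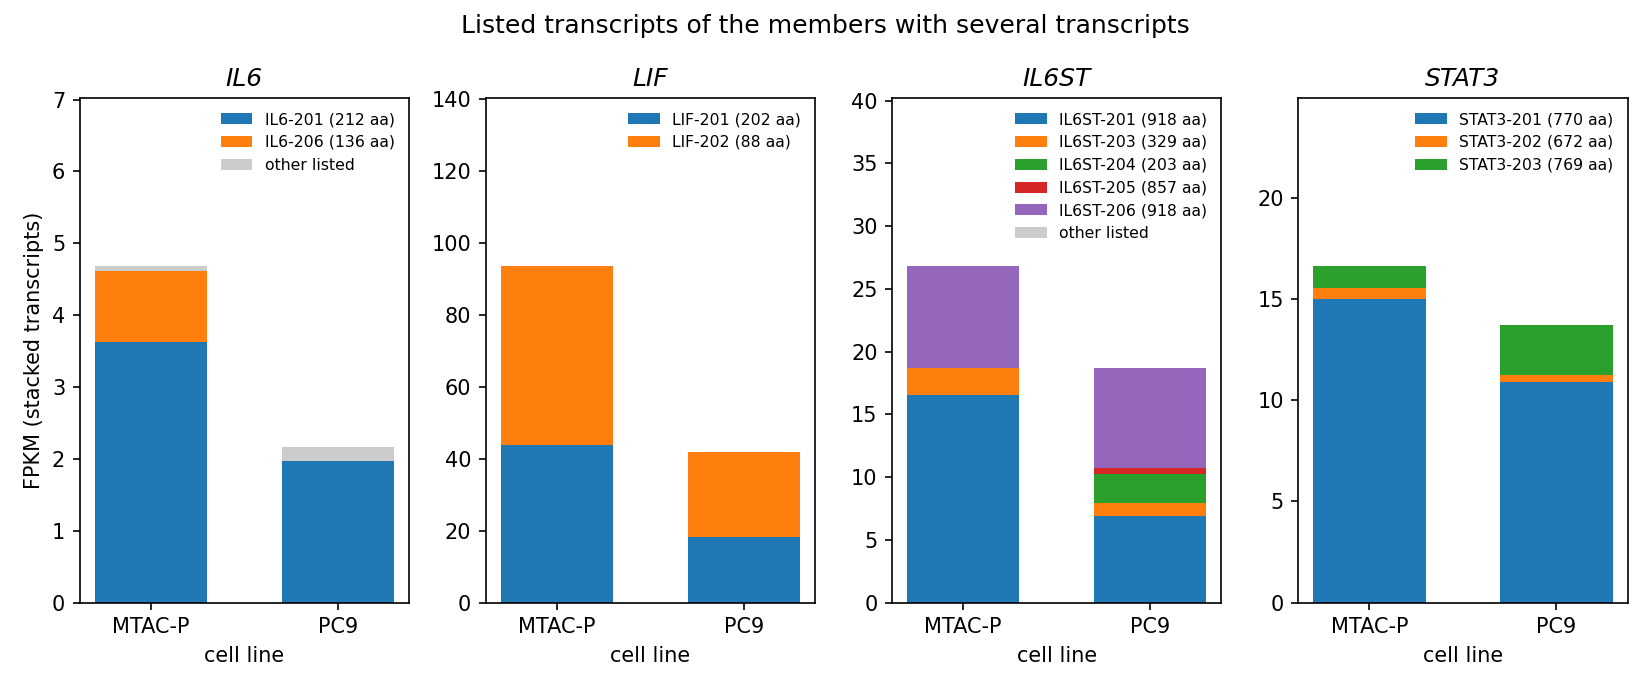
FPKM of each listed transcript, stacked from 0 per library, for the 4 genes with several transcripts at 0.5 FPKM or more, with MTAC-P left of PC9 and the length of the encoded protein in residues (aa) in each legend. The LIF split is alike in both lines, IL6ST-201 is the larger part of IL6ST in MTAC-P (61.7%, against 36.8% in PC9), and STAT3-203 is smaller in MTAC-P. Splits between transcripts are less certain than the sums.

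STAT3 itself differed little. STAT3 (chromosome 17, 42313324 to 42388568, minus strand) stood at 16.6 FPKM in MTAC-P and 13.7 in PC9, a log2 ratio of 0.26. STAT3-201, which encodes 770 residues, the length of the full STAT3alpha form, stood at 15.0 FPKM in MTAC-P and 10.9 in PC9 (log2 ratio 0.43). STAT3-203, encoding 769 residues, stood at 1.10 FPKM in MTAC-P and 2.49 in PC9 (log2 ratio -0.73), which is 6.61% of the sum in MTAC-P and 18.1% in PC9. STAT3-201 and STAT3-203 both have 24 exons, and their split, like those of IL6ST, is less certain than the sum. STAT3-202 was at 0.506 FPKM in MTAC-P and 0.363 in PC9. STAT3-213, which also encodes 770 residues, was not analysed here. Neither was STAT3-211, encoding 722 residues, the length of the shortened STAT3beta form.

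SOCS3, which STAT3 induces and which in turn blocks gp130 signalling, also passed 2-fold. SOCS3 (chromosome 17, 78356778 to 78360077, minus strand) stood at 9.43 FPKM in MTAC-P and 3.40 in PC9, a log2 ratio of 1.24, higher than that of 97.7% of genes compared. The value is that of SOCS3-201, encoding 225 residues. The 30 coding genes compared within 2 Mb of it had a median of -0.18, and 1 of them, LGALS3BP, a secreted glycoprotein gene, reached 2-fold, being lower (2.88 FPKM in MTAC-P and 8.01 in PC9).

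**Figure D3:**
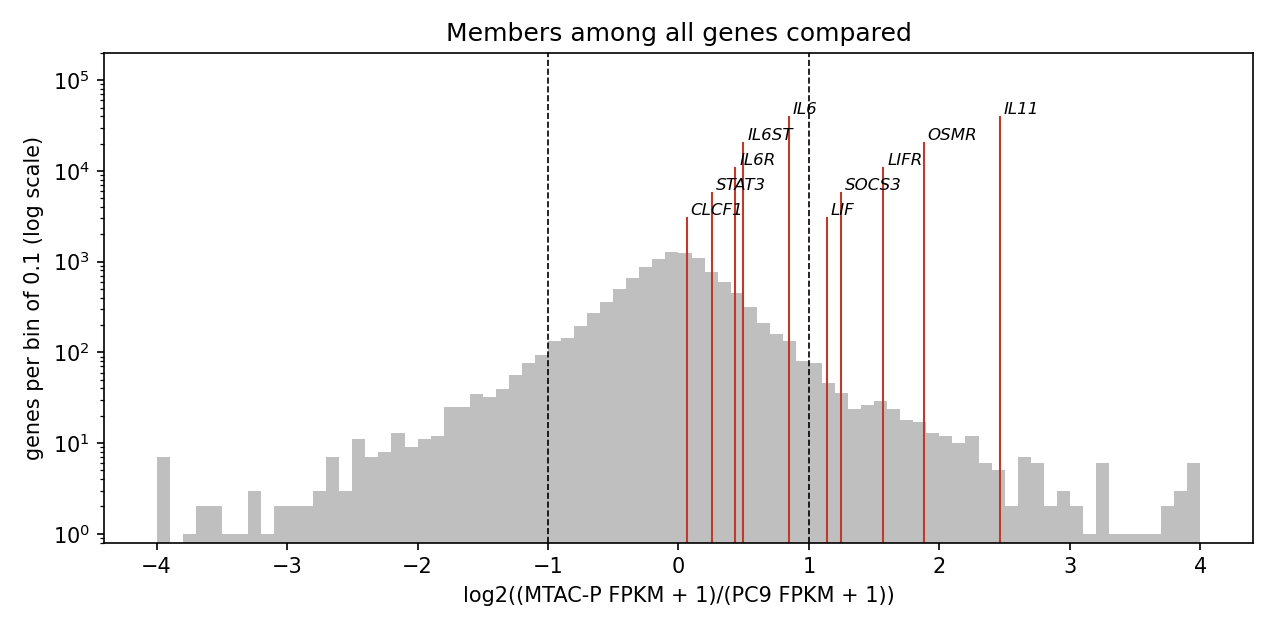
Number of genes in bins of 0.1 of log2((MTAC-P + 1)/(PC9 + 1)) over the 11435 genes compared, on a log axis, with values beyond 4 in size drawn in the end bins. Red lines mark the 10 genes and dashed lines 2-fold: all 10 lie right of 0, from CLCF1 (0.06) to IL11 (2.46), and 5 lie beyond the right dashed line.

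The other genes of the pathway, 68 in 6 lists, were mostly within 2-fold. Of the 44 that could be compared, 26 had a positive log2 ratio. In MTAC-P 4 of the 44 were higher by 2-fold and none lower, where 3.48% of all genes compared were higher and 4.29% lower, and the median log2 ratio was 0.09. All 4 that passed 2-fold were in the list of STAT3 target genes. These lists, like the 10 genes, were drawn up with earlier results known.

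Of 4 other receptor chains of the family, 3 were under 1 FPKM in both lines, as summed over the transcripts listed. IL11RA, the receptor chain of IL-11, stood at 0.299 FPKM in MTAC-P and 0.501 in PC9, from 1 of its 8 coding transcripts. CNTFR, through which CLCF1 acts, was listed at 0 in MTAC-P and stood at 0.278 in PC9. IL31RA was at 0.0451 FPKM in MTAC-P and 0.0237 in PC9. The 1 gene of the 4 in this list that could be compared was IL27RA, a receptor for IL-27, at 4.28 FPKM in MTAC-P and 2.86 in PC9 (log2 ratio 0.45). ADAM10 and ADAM17, proteases that shed IL6R from the cell surface, were abundant and within 2-fold, with ADAM17 at 32.3 FPKM in MTAC-P and 28.4 in PC9 and ADAM10 at 25.4 in MTAC-P and 23.4 in PC9.

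Other ligands of the family were low. Of 7, only cardiotrophin CTF1 and CNTF reached a mean of 1. CTF1 stood at 2.13 FPKM in MTAC-P and 2.62 in PC9 (log2 ratio -0.21), and CNTF at 0.805 in MTAC-P and 1.48 in PC9 (-0.46). OSM, the ligand of OSMR, stood at 0.0297 FPKM in MTAC-P and was listed at 0 in PC9. EBI3, a subunit of IL-27, stood at 0.403 FPKM in MTAC-P and 0.371 in PC9.

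None of the 6 JAK and STAT genes compared reached 2-fold, and 3 of them lay above 0, with a median log2 ratio of -0.31. JAK1, the kinase most used by gp130, stood at 38.6 FPKM in MTAC-P and 28.1 in PC9 (log2 ratio 0.44). STAT6, which carries IL-4 signals, had a log2 ratio of 0.06 and STAT5B one of 0.09. Of 12 other brakes on JAK-STAT signalling none reached 2-fold either, and their median was -0.01. The most abundant were the phosphatases PTPN11, at 69.6 FPKM in MTAC-P and 61.6 in PC9, and PTPN1, at 36.7 in MTAC-P and 33.7 in PC9, then SOCS4 (log2 ratio -0.04) and PTPN2 (0.31). The lowest log2 ratio of the 12 was that of PIAS2 (-0.90). Relatives of SOCS3 with a mean under 1 were not compared. SOCS1 stood at 1.09 FPKM in MTAC-P and 0.394 in PC9, and SOCS2 at 1.07 in MTAC-P and 0.272 in PC9. SOCS7 went the other way, at 0.000536 FPKM in MTAC-P and 0.217 in PC9.

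STAT3 target genes were mixed. Of the 21 that could be compared, 14 had a positive log2 ratio, 4 passed 2-fold upward and none downward, and the median was 0.45. Over all genes compared, 47.6% were above 0 and 3.48% passed 2-fold upward. The 4 were the acute-phase genes SAA1 and SAA2, the iron-carrier gene LCN2 and the adhesion molecule gene ICAM1, and all 4 are also known targets of NF-kB. SAA2 stood at 38.4 FPKM in MTAC-P and 12.0 in PC9 (log2 ratio 1.60), though SAA1 (2.18) and SAA2 are near identical in sequence and their separate values are uncertain. ICAM1 stood at 35.4 FPKM in MTAC-P and 15.2 in PC9 (1.17), and LCN2 had a log2 ratio of 2.10. The survival gene MCL1 stood at 102.9 FPKM in MTAC-P and 61.6 in PC9 (0.73), and the cyclin gene CCND1 at 137 in MTAC-P and 127 in PC9 (0.11). Of the 21, 7 lay below 0, the lowest being the metalloproteinase inhibitor gene TIMP1, at 61.8 FPKM in MTAC-P and 88.7 in PC9 (-0.51), and STEAP4, a metalloreductase gene, at 5.23 in MTAC-P and 7.86 in PC9 (-0.51). Of the 9 that were too low to compare, most are liver acute-phase genes, such as CRP and FGB, which were listed at 0 in both lines.

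**Figure D4:**
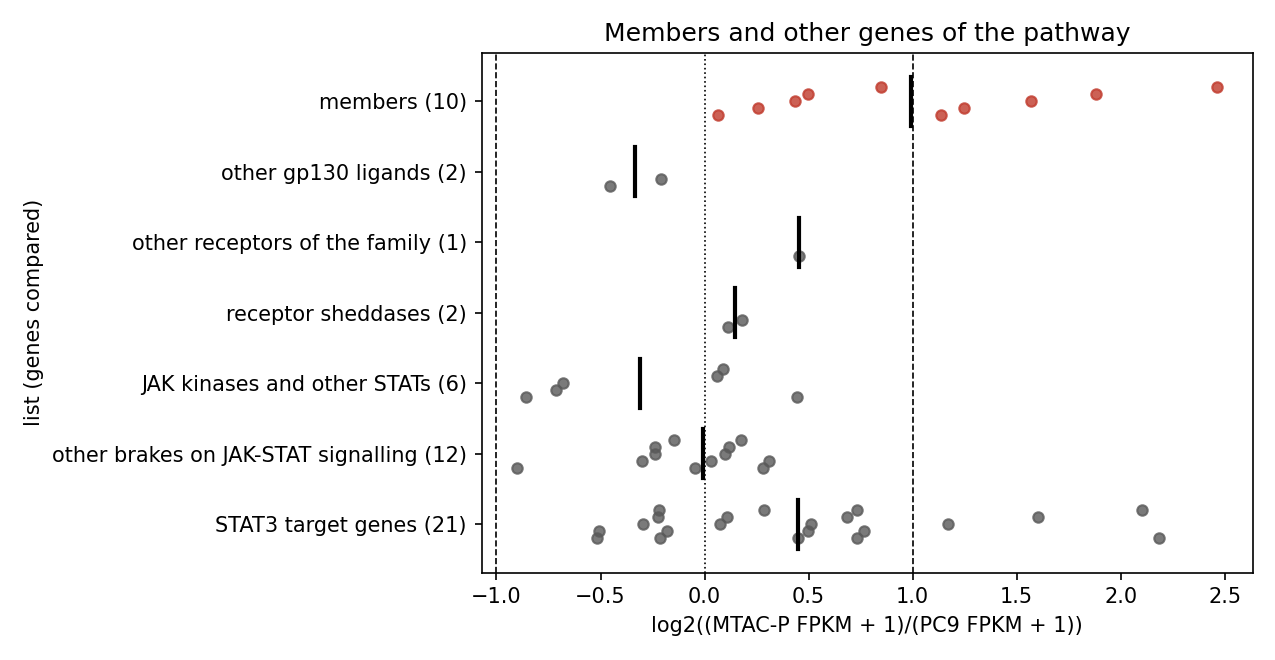
log2((MTAC-P + 1)/(PC9 + 1)) of each gene compared, 1 point per gene spread vertically only for legibility, for the 10 genes (red) and the 6 lists (grey), with a black bar at each median, a dotted line at 0 and dashed lines at 2-fold. The 10 genes have a median of 0.99 and the STAT3 target genes one of 0.45, while JAK kinases and other STATs have one of -0.31.

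The 5 coding genes whose values in the 2 libraries lay nearest to those of IL11, by distance in log2(FPKM + 1), were COL12A1, IL1RL1, SGK1, SPRR1B and HBEGF. COL12A1, a collagen chain, stood at 22.2 FPKM in MTAC-P and 4.66 in PC9, a distance of 0.31 from IL11. IL1RL1, the receptor of IL-33, stood at 24.5 FPKM in MTAC-P and 2.59 in PC9, a distance of 0.39. The kinase gene SGK1 (0.50), the cornified envelope gene SPRR1B (0.55) and the EGFR ligand gene HBEGF (0.55) followed. With only 2 libraries, this likeness says that the levels are close in both, and no more.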

How the data were processed

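RNA of MTAC-P and PC9 was sequenced, with 1 library a line analysed here. The submitters' processing notes name Trim Galore, TopHat, Cufflinks and the build hg38; tool versions and the annotation release are not given in the sources used here. Each deposited table holds 1 FPKM value per transcript, a unit taken from the mention of Cufflinks. The tables stop at 65536 lines, a spreadsheet limit, so transcripts numbered after 437205 were not analysed here. Of 45 coding transcripts of the 10 genes in GENCODE release 29 (GRCh38), 26 were listed.

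Values were summed per symbol, genes averaging 1 FPKM or more were compared by log2((MTAC-P + 1)/(PC9 + 1)), and 2-fold was counted (Python 3.11.15, pandas 2.3.3). No test was possible with 1 library a line. The ratio step was run on simulated data without noise, which checks its arithmetic only. Transcripts were named at 0.5 FPKM or more in either line, and of each list up to 5 genes at 2-fold and the 4 most abundant; some genes that this rule takes are left out. The genes, lists and thresholds were chosen with earlier results of these data known. Neighbouring genes and others given by name alone were chosen after their values were seen. Alternatives covered the pseudocount, scaling, filter, threshold and transcripts used.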

Additional observations from a re-analysis of the deposited data

How the results depend on the processing

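The count of 5 genes at 2-fold was 5 or 6 under every alternative but 3: it was 3 with a pseudocount of 5, 1 (IL11) at 4-fold, and 4 of 7 genes with a mean of at least 5, where IL6, IL6R and LIFR fall under the minimum. With a pseudocount of 5, LIFR (0.65) and SOCS3 (0.78) were below 2-fold and the median of the 10 genes was 0.54. With a pseudocount of 0.1 IL6 passed it (1.08), and so did IL6ST (1.15) with the highest transcript only. Of 97 log2 ratios of the 10 genes under alternatives, 93 stayed on the same side of 2-fold and none changed sign. Part of this was fixed in advance, so these counts are no measure of robustness. Changing the filter, or using coding transcripts only, left each log2 ratio as it was, because all listed transcripts of these genes are coding. A pseudocount cannot change a sign. The 888 genes at 2-fold among all compared became 1344 with a pseudocount of 0.1, 284 with 5, 431 with a mean of at least 5, 2307 at 1.5-fold and 174 at 4-fold. The last 3 compare fewer genes or move the threshold. The scalings tried moved the median of all genes by 0.03 or less. No paired analysis was possible because there is only 1 library of MTAC-P and 1 of PC9, and for the same reason no replicate could be left out. Depth is unknown, so the low values of IL6R, LIFR and IL6 carry no precision.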

Other observations

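Around LIF on chromosome 22, 3 of 41 other coding genes compared within 2 Mb passed 2-fold, all upward. Of all genes compared, 7.77% did so either way and 3.48% upward. The count is near the share either way and above the share upward, a difference that was not tested. The 3 were higher in MTAC-P: CCDC117 (37.2 FPKM in MTAC-P and 16.8 in PC9), XBP1 (119.8 in MTAC-P and 59.0 in PC9), a factor of the unfolded protein response, and SEC14L2 (27.0 in MTAC-P and 11.3 in PC9), a lipid-binding protein. The median log2 ratio of the 41 genes was 0.24, against 0.01 for the 247 coding genes compared on that chromosome. The part of this region in the LIF value was not tested.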
